A study of Homo sapiens with 46 samples.

Results

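MAVS is the adaptor on mitochondria through which the RIG-I-like receptors signal, and the comparison described here asked how much of the transcriptional response to losing Ku80 differed when MAVS was absent. The quantity is a difference of responses: the change after degrading Ku80 in MAVS-/- clones minus the change after degrading Ku80 in clones with intact MAVS, each change taken within a clone. It uses 12 of the series' 46 RNA-seq libraries, placed in groups by their labels, and 16552 of the 61228 genes in the table passed the filter on low counts and were tested. All 12 came from HCT116, a human colon carcinoma line, in which Ku80 carries an auxin-inducible degron (Ku80-AID). Ku80, encoded by XRCC5, forms with Ku70 the ring that holds broken DNA ends, and the series asks how Ku restrains innate immune responses to RNA.

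The 4 groups held 3 clones each, with 1 library per clone. Ku80-AID MAVS-/- clones 1, 13 and 15 were read after 4 days of 100 µM indole-3-acetic acid (IAA, the auxin that triggers degradation, given with 0.5 µg/mL doxycycline) and after 4 days of DMSO. Ku80-AID clones 1, 7 and 9 with intact MAVS were read after 4 days of IAA with doxycycline and after 2 days of DMSO. The MAVS-intact response therefore spans 2 days more in culture than its control, and this cannot be told apart from depletion in that response or in the difference. IAA and doxycycline were given together, so their own effects cannot be told apart from Ku80 loss in either genotype. Clones are single lines, a clone number shared by the genotypes does not link them, and the labels used here do not say how MAVS was disrupted.

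As background, RIG-I (RIGI) and MDA5 (IFIH1) bind double-stranded RNA in the cytosol and pass the signal to MAVS. MAVS recruits the kinase TBK1, which phosphorylates IRF3 and IRF7, and these factors switch on interferon genes. Secreted interferon then acts through JAK kinases and STAT and IRF factors on interferon-stimulated genes, which include the RNA sensors themselves.

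The libraries held 9.96 to 21.8 M counts, with normalization factors of 0.935 to 1.09, and levels are given in CPM, counts per M of each library's total after those factors. Values of a group are listed in the order of its clones, 1, 13 and 15 for MAVS-/- and 1, 7 and 9 for MAVS-intact. MAVS mRNA was present in all 12 libraries. It read 187, 153 and 178 CPM after IAA and 163, 111 and 152 CPM in DMSO in MAVS-/- clones, against 475, 359 and 428 CPM after IAA and 324, 356 and 330.4 CPM in DMSO in MAVS-intact clones. It was lower in MAVS-/- clones after IAA by a log2 change of -1.28 ± 0.16 (edgeR adjusted p = 2.71e-05) and in DMSO by -1.25 ± 0.16 (edgeR adjusted p = 5.85e-05), without overlap, while a transcript level does not show whether protein is made. The epithelial keratin KRT18 read 605, 829 and 590.4 CPM after IAA in MAVS-/- clones and 667, 526 and 666 CPM in MAVS-intact clones, whereas 9 of 13 blood and stromal markers and the colon markers CDX1, CEACAM5, MUC13 and LGALS4 did not pass the count filter. The libraries of the genotypes also stood apart at MT-ND6, a mitochondrial gene on the opposite strand to most others. It took 822, 805 and 889 CPM after IAA and 1107, 1264 and 1103 CPM in DMSO in MAVS-/- clones, against 154, 106 and 91.5 CPM after IAA and 57.9, 70.8 and 70.7 CPM in DMSO in MAVS-intact clones. Across all 40 HCT116 libraries 22 held 799 to 1622 counts of MT-ND6 per M of unscaled total and 18 held 41.6 to 222, with all MAVS-/- libraries in the first set and all MAVS-intact libraries used here in the second. Each response was formed within one such set, whereas the direct comparisons of genotypes run across sets, and genotype cannot be told apart from library set there.

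The promoters below are shown because they hold letters known from interferon-stimulated genes, the group with the most named genes of lower response in MAVS-/- clones. Each is the RefSeq window of 300 bases on GRCh38.p14 from 250 bases before to 50 after the start, 5′ to 3′ on the gene's strand. In IFI6 (chr1:27672143-27672442, minus strand), IFIT1 (chr10:89392373-89392672, plus strand) and ISG15 (chr1:1013247-1013546, plus strand) the capitals mark GAAANNGAAA on either strand, the core of the interferon-stimulated response element. In OAS1 (chr12:112906712-112907011, plus strand) and RIGI (chr9:32526147-32526446, minus strand) that core was absent, and the capitals mark the same repeats 1 base apart, GAAANGAAA. The mitotic kinase PLK1 (chr16:23678639-23678938, plus strand) stands for the genes that moved the other way, with the letters TTTGAA of the cell cycle homology region in capitals.
IFI6: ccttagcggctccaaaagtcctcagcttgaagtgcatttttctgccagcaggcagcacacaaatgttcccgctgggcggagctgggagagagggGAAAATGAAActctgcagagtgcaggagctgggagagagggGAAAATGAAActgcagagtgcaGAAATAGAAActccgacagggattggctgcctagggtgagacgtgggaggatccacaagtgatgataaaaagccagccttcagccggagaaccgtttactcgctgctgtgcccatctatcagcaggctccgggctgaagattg
IFIT1: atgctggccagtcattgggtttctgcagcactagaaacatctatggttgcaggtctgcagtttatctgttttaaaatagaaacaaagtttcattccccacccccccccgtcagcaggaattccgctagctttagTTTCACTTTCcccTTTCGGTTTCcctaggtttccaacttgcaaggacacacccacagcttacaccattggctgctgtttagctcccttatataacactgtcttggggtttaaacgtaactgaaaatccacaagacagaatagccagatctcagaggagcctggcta
ISG15: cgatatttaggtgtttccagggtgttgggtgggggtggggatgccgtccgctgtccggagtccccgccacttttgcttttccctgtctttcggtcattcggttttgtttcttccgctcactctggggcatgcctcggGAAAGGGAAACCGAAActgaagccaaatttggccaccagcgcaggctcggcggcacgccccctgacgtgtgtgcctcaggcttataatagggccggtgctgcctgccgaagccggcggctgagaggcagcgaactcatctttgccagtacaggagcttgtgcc
OAS1: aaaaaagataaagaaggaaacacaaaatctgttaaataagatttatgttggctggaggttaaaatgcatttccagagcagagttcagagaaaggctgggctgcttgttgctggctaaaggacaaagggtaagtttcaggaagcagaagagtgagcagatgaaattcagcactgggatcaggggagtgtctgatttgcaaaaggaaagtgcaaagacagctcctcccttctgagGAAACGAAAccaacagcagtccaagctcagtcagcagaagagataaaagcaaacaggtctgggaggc
RIGI: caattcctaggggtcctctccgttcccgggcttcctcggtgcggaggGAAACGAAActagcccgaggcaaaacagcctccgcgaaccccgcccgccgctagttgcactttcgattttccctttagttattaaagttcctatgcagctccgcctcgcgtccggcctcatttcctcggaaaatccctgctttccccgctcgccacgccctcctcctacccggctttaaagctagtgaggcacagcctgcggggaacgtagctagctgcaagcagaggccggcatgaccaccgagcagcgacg
PLK1: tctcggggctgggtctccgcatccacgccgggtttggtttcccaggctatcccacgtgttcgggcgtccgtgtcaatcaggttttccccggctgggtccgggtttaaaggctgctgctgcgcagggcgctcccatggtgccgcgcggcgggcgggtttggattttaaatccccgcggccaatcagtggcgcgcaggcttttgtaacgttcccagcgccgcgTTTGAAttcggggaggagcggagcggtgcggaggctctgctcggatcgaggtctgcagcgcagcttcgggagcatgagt

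Both strands of every promoter were searched, and the 1-base spacing was added after these windows had been seen. The core GAAANNGAAA occurred in 3.65% of the 27305 promoters of the table and in 2.71% of the 11329 tested genes with a promoter there. It occurred in 32 of 180 genes with a lower response in MAVS-/- clones (17.8%) and in 6 of 210 with a higher one (2.86%). Of the tested interferon-stimulated genes with a promoter it was found in 28 of 50 (56%), and of those with a lower response in 21 of 33 (63.6%). IFI6, IFIT5 and HERC5 held 3 matches each. GAAANGAAA occurred in 3.22% of all promoters, in 2.52% of those of tested genes and in 16 of the 180 (8.89%). PARP14 and SAMD9 held it as well as the core. TTTGAA occurred in 15.4% of all promoters and 9.58% of those of tested genes, in 56 of the 210 genes with a higher response (26.7%) and in 23 of the 180 with a lower one (12.8%). The E2F letters TTTCGCGC or TTTGGCGC occurred in 1.18% of all promoters and 2.04% of those of tested genes, in 22 of the 210 (10.5%) and in 0 of the 180. A match describes letters only, and the sets were formed from the same values as the difference.

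Where the responses differed, MAVS-/- clones mostly changed less, among genes that rose and among genes that fell in MAVS-intact clones. The response of MAVS-/- clones was lower than that of MAVS-intact clones for 277 genes, 1.67% of those tested, and higher for 248 genes, 1.50% (edgeR quasi-likelihood test with the clone as a block, Benjamini-Hochberg adjusted p below 0.05), with 2926 genes at an unadjusted p below that value. At least 2-fold differences numbered 213 lower and 182 higher. Without the clone block the test called 162 lower and 179 higher. Single clones moved the count: it was 82 lower and 76 higher without MAVS-/- clone 1, and 94 lower and 75 higher without MAVS-/- clone 15. Without MAVS-intact clone 1 it was 511 lower and 470 higher, and without MAVS-intact clone 9 it was 172 lower and 164 higher. Without MAVS-/- clone 13 the test called 175 lower and 136 higher, and without MAVS-intact clone 7 it called 141 higher.

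Nearly all of these genes moved in MAVS-intact clones. Of the 277, 268 rose in MAVS-intact clones, where 2718 genes (16.4%) rose and 2647 (16.0%) fell, and of the 248, 247 fell there. In MAVS-/- clones 358 genes (2.16%) rose and 314 (1.90%) fell, but this count depended on every clone: 18 rose and 39 fell without clone 13, 37 and 29 without clone 1, and 28 and 19 without clone 15. Without MAVS-intact clone 1 in the shared fit 868 rose and 766 fell, and without MAVS-intact clone 9 194 rose and 167 fell. Without the block 299 rose and 180 fell in MAVS-/- clones. Across the 2 genotypes 336 genes rose in both and 262 fell in both, and for 227 and 149 of these the 95% interval of the difference lay within 1 log2 unit of 0. The per-clone responses did not overlap between genotypes for 275 of the 277 and 244 of the 248 genes, against 11.6% of tested genes lower and 12.4% higher without overlap. Both sets were called from these same responses, so their lack of overlap is not separate support.

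**Figure D1:**
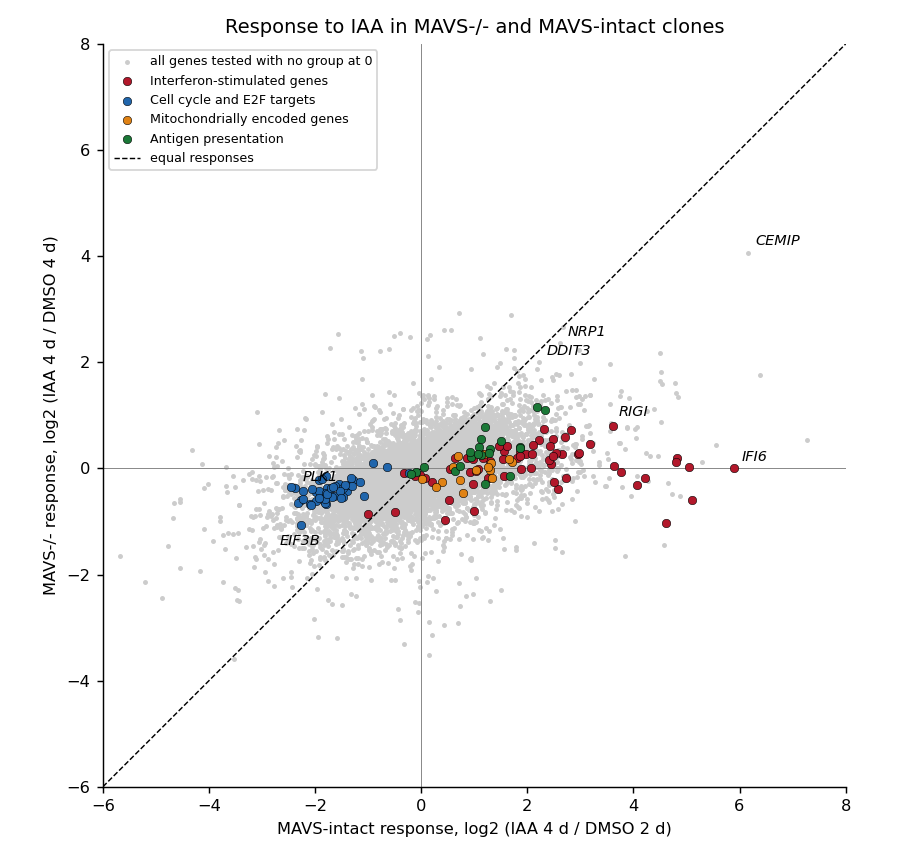
Response of each gene to IAA in MAVS-/- clones (vertical, log2 of IAA at 4 days over DMSO at 4 days) against MAVS-intact clones (horizontal, log2 of IAA at 4 days over DMSO at 2 days), for the 15999 tested genes with no group at 0 counts; the dashed line marks equal responses. Interferon-stimulated genes (red) lie far to the right near a MAVS-/- response of 0, cell cycle genes (blue) far to the left near it, and NRP1 and DDIT3 near the line.

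After Ku80 loss 5 of the 10 RNA sensor and adaptor genes rose in MAVS-intact clones and 1, RIGI, in MAVS-/- clones. RIGI read 22.5, 12.9 and 15.7 CPM after IAA and 11.2, 8.10 and 8.62 CPM in DMSO in MAVS-/- clones, against 126, 126 and 135 CPM after IAA and 9.31, 14.2 and 9.22 CPM in DMSO in MAVS-intact clones. All 3 MAVS-intact clones after IAA stood above every other library, and the DMSO groups overlapped. The log2 response was 0.85 ± 0.17 in MAVS-/- clones and 3.58 ± 0.18 in MAVS-intact clones, a difference of -2.72 ± 0.24 (edgeR adjusted p = 0.000481). The smaller rise in MAVS-/- clones passed the test (edgeR adjusted p = 0.025) but not with any of these clones left out. IFIH1 read 14.6, 7.96 and 14.7 CPM after IAA and 10.4, 12.6 and 10.9 CPM in DMSO in MAVS-/- clones, against 72.4, 90.8 and 84.8 CPM after IAA and 13.2, 8.26 and 13.8 CPM in DMSO in MAVS-intact clones. Only the MAVS-intact libraries after IAA stood apart, and the difference was -2.73 ± 0.36 (edgeR adjusted p = 0.00341). ZNFX1, a helicase that binds viral RNA, rose by 1.24 ± 0.11 in MAVS-intact clones and read 0.42 ± 0.11 in MAVS-/- clones, a difference of -0.83 ± 0.16 (edgeR adjusted p = 0.0198) that was lost without MAVS-/- clone 1 or 15 or MAVS-intact clone 9.

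Of the 10 sensor and adaptor genes tested, 4 had a lower response without MAVS and 0 a higher one, with a median difference of -0.78 beside -0.01 over all genes. The other call was TICAM1, the adaptor of the endosomal receptor TLR3, at -1.17 ± 0.27 (edgeR adjusted p = 0.0438), a call lost when any clone except MAVS-/- clone 13 was left out. DHX58, which encodes the regulatory receptor LGP2, read 0.885, 0.502 and 0.86 CPM after IAA in MAVS-/- clones and 1.51, 4.38 and 0.57 CPM in MAVS-intact clones, with overlap, and its difference of -2.89 ± 1.03 was not called (edgeR adjusted p = 0.17). TRIM25, a ubiquitin ligase of the RIG-I pathway, stood at -0.73 ± 0.18 (edgeR adjusted p = 0.0633). MAVS mRNA itself had a difference of -0.01 ± 0.18, with a 95% interval of -0.41 to 0.39.

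Downstream of MAVS, IRF7 was the 1 gene of 17 relay genes with a called difference. This interferon regulatory factor, itself induced by interferon, read 15.8, 10.5 and 12.2 CPM after IAA and 8.72, 5.84 and 7.34 CPM in DMSO in MAVS-/- clones, against 58.3, 20.1 and 27.3 CPM after IAA and 3.86, 3.49 and 3.38 CPM in DMSO in MAVS-intact clones. The groups after IAA did not overlap, while in DMSO the MAVS-/- clones stood above the MAVS-intact ones. The difference of responses was -2.34 ± 0.35 (edgeR adjusted p = 0.00692). The kinase TBK1 stood at 0.26 ± 0.24 and IRF3, the factor it phosphorylates, at -0.29 ± 0.20 with a 95% interval of -0.72 to 0.14, and neither was called. IRF3 read 144, 97.3 and 118 CPM after IAA in MAVS-/- clones and 63.4, 50.7 and 53.1 CPM in MAVS-intact clones, higher in MAVS-/- clones also in DMSO by 1.38 ± 0.15 (edgeR adjusted p = 1.95e-05).

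Interferon transcripts were near or below detection. IFNB1 and CXCL10 had 0 counts in all 12 libraries, and a count of 0 allows up to 3 counts in a library. IFNL1, an interferon lambda, had 7, 0 and 2 counts after IAA in MAVS-intact clones 1, 7 and 9 and 0 counts in the other 9 libraries. CCL5, a chemokine that interferon signalling induces, had 1, 1 and 3 counts after IAA and 2, 1 and 3 counts in DMSO in MAVS-/- clones, against 17, 4 and 4 counts after IAA and 0, 0 and 4 counts in DMSO in MAVS-intact clones, and it did not pass the filter. Of 16 ligand and receptor genes 7 passed the count filter, and edgeR called 0 of them in the difference, with 0 at an unadjusted p below 0.05 and 0 by DESeq2 or limma. The receptor chains IFNAR1 and IFNAR2 stood at -0.27 ± 0.20 and 0.48 ± 0.22.

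STAT2 and IRF9, transcription factors that act downstream of the interferon receptors, had lower responses without MAVS. STAT2 read 133, 104 and 132 CPM after IAA and 90.2, 80.9 and 98.8 CPM in DMSO in MAVS-/- clones, against 169.9, 134 and 154 CPM after IAA and 54.2, 48.8 and 57.4 CPM in DMSO in MAVS-intact clones. Every MAVS-/- library after IAA lay below every MAVS-intact one, by a log2 change of -0.31 ± 0.14 that was not called, and its difference of -1.06 ± 0.16 (edgeR adjusted p = 0.00711) came with a higher level in DMSO in MAVS-/- clones, by 0.75 ± 0.14. IRF9 read 35.1, 13.8 and 25.6 CPM after IAA and 18.9, 15.03 and 18.0 CPM in DMSO in MAVS-/- clones, against 85.2, 57.3 and 69.6 CPM after IAA and 17.9, 17.1 and 14.2 CPM in DMSO in MAVS-intact clones. The 3 MAVS-intact libraries after IAA stood above the other 9. The difference was -1.65 ± 0.28 (edgeR adjusted p = 0.0119). USP18, which removes ISG15 and damps receptor signalling, stood at -2.25 ± 0.29 (edgeR adjusted p = 0.00332). JAK1 stood at -0.27 ± 0.20, IRF1 at -0.17 ± 0.22 and IRF2 at -0.47 ± 0.28, none called. In all 4 of 14 genes of this list were lower and 0 higher, with a median difference of -0.39. In MAVS-/- clones edgeR called 0 of the 14, with 3 up and 1 down at an unadjusted p below 0.05 and 2 up by DESeq2.

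Of 11 tested genes whose products act on double-stranded RNA 5 had a lower response without MAVS and 0 a higher one, with a median difference of -0.49. OAS3, which makes the 2-5A activator of RNase L, read 60.5, 54.5 and 61.7 CPM after IAA and 76.4, 69.0 and 77.4 CPM in DMSO in MAVS-/- clones, against 354, 244 and 300.1 CPM after IAA and 73.1, 70.6 and 85.9 CPM in DMSO in MAVS-intact clones. Every MAVS-/- clone was lower after IAA than in DMSO, although that fall was not called, and the difference was -2.29 ± 0.18 (edgeR adjusted p = 0.000277). OAS1, of the same family, read 1.48, 1.29 and 1.17 CPM after IAA and 1.40, 0.467 and 0.926 CPM in DMSO in MAVS-/- clones, against 42.3, 8.51 and 11.6 CPM after IAA and 0.297, 0 and 0.102 CPM in DMSO in MAVS-intact clones. Its difference of -6.75 ± 0.67 (edgeR adjusted p = 0.000889) rests on a MAVS-intact control near 0. The related OASL stood at -4.08 ± 0.37 (edgeR adjusted p = 0.000521).

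EIF2AK2, the kinase PKR that halts translation when it binds double-stranded RNA, read 113, 77.3 and 114 CPM after IAA and 122, 94.7 and 108 CPM in DMSO in MAVS-/- clones, against 428, 517 and 510.0 CPM after IAA and 195, 182 and 186 CPM in DMSO in MAVS-intact clones. It was lower in MAVS-/- clones in both media, and its difference of responses was -1.47 ± 0.18 (edgeR adjusted p = 0.00224). SLFN5, a Schlafen family member, rose in both genotypes, by 0.68 ± 0.12 in MAVS-/- clones (edgeR adjusted p = 0.0178, lost when any of them was left out) and by 2.66 ± 0.13 in MAVS-intact clones, a difference of -1.97 ± 0.18 that was -0.32 and not called with the CDK4/6 inhibitor arms described further on. ADAR, which edits adenosines in double-stranded RNA, stood at -0.49 ± 0.15 and was not called (edgeR adjusted p = 0.111).

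**Figure D2:**
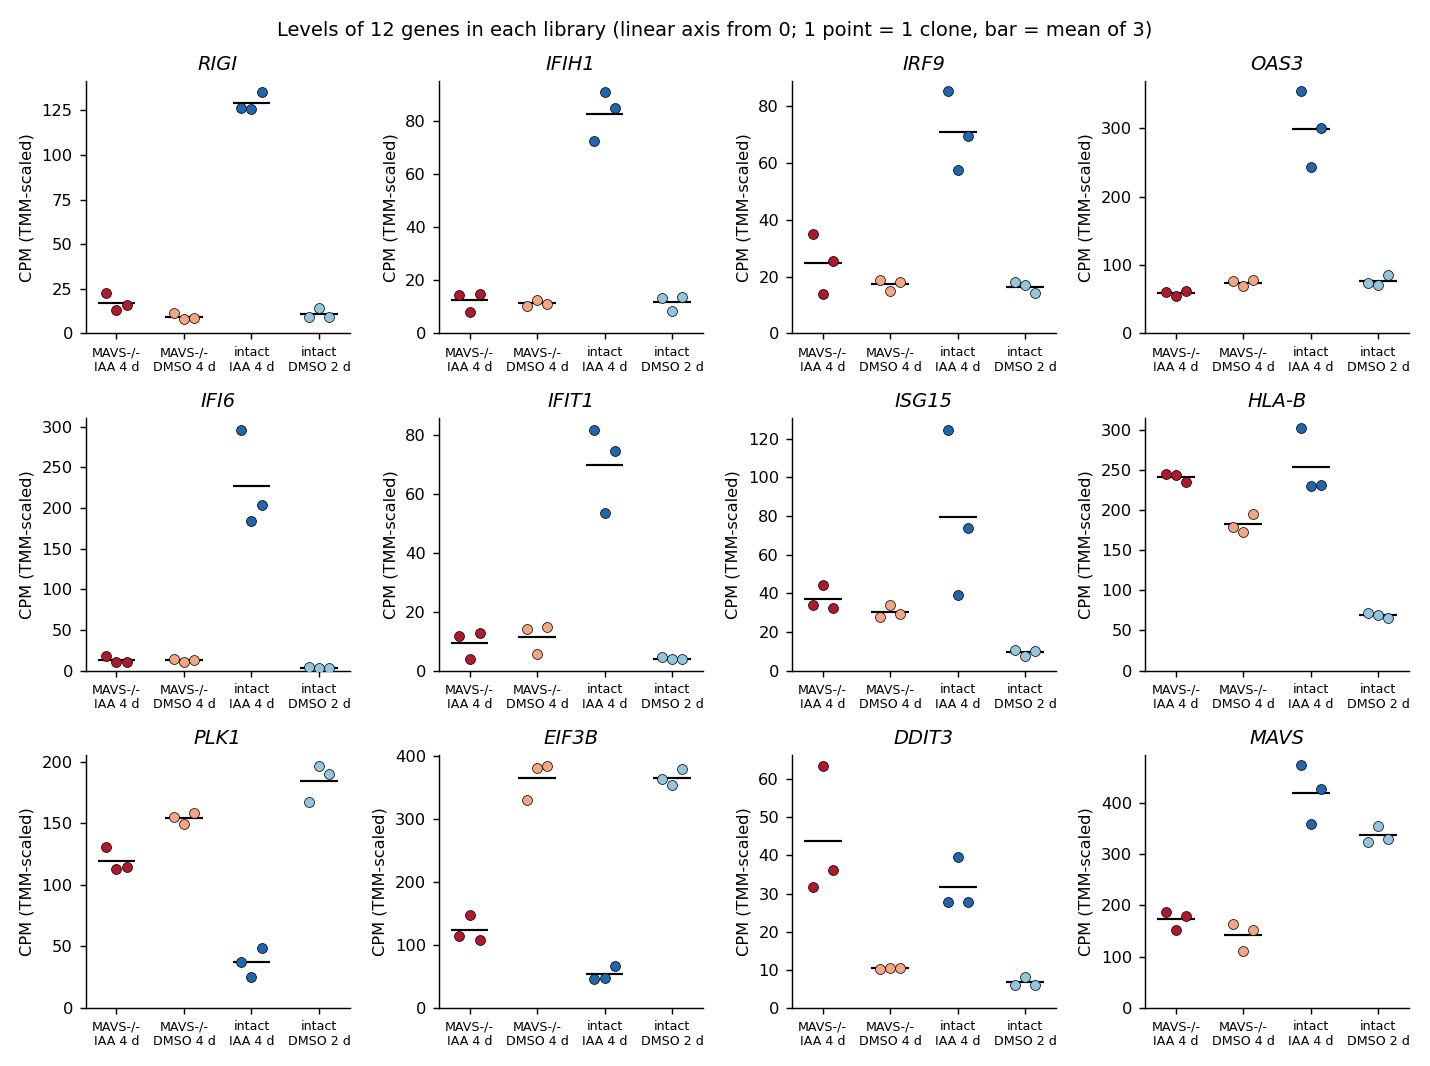
Level of 12 genes in CPM (vertical, linear from 0) in each library of the 4 groups, with 1 point per clone and a bar at the mean of 3. RIGI, IFIH1, IRF9, OAS3, IFI6 and IFIT1 are highest in MAVS-intact clones after IAA, HLA-B is about equal after IAA, EIF3B and DDIT3 move in both genotypes, and MAVS is lower in MAVS-/- clones throughout.

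Interferon-stimulated genes rose broadly in MAVS-intact clones and in 3 cases in MAVS-/- clones. Of 67 tested members of a list of 74, 40 had a lower response without MAVS and 0 a higher one. Their median difference was -1.79, or -1.71 with the 4 members that had a group at 0 counts set to their bound, beside -0.01 over all genes. In MAVS-intact clones 57 of the 67 rose and 0 fell, with a median of 2.06, beside 16.4% up and 16.0% down over all genes. In MAVS-/- clones 3 of the 67 rose and 2 fell, with a median of 0.11, beside 2.16% up and 1.90% down over all genes. The per-clone responses did not overlap for 59 of the 67, all lower in MAVS-/- clones, against 11.6% of all tested genes lower without overlap. The calls came from these same responses, so the lack of overlap is not separate support. Together the 74 list members, tested or not, took 0.286, 0.248 and 0.269% of counts after IAA and 0.263, 0.224 and 0.249% in DMSO in MAVS-/- clones. In MAVS-intact clones the list took 0.646, 0.442 and 0.477% after IAA and 0.188, 0.186 and 0.183% in DMSO. In bulk RNA fewer responding cells and less RNA per cell cannot be told apart.

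IFI6, a mitochondrial protein induced by interferon, had the smallest p of the list. It read 18.5, 10.9 and 10.0 CPM after IAA and 13.9, 11.1 and 13.2 CPM in DMSO in MAVS-/- clones, against 296, 184 and 203 CPM after IAA and 4.95, 2.88 and 3.59 CPM in DMSO in MAVS-intact clones. The MAVS-/- libraries overlapped between media, and every MAVS-intact library after IAA was above every one of them. The response was 0.01 ± 0.16 in MAVS-/- clones and 5.90 ± 0.19 in MAVS-intact clones, a difference of -5.89 ± 0.25 (edgeR adjusted p = 1.9e-06). IFIT1, which binds RNA with a foreign 5′ end, read 11.8, 3.87 and 12.9 CPM after IAA and 14.2, 5.68 and 14.7 CPM in DMSO in MAVS-/- clones, against 81.8, 53.3 and 74.7 CPM after IAA and 4.46, 3.79 and 4.00 CPM in DMSO in MAVS-intact clones. Each MAVS-/- clone was slightly lower after IAA than in DMSO, and the difference was -4.39 ± 0.25 (edgeR adjusted p = 1.95e-05). SAMD9, a restriction factor of poxviruses, kept a small rise of 0.81 ± 0.15 in MAVS-/- clones (edgeR adjusted p = 0.0176), lost when any of these clones was left out, against 3.61 ± 0.15 in MAVS-intact clones. IFITM1, a membrane protein that blocks viral entry, stood at -5.63 ± 0.48 (edgeR adjusted p = 0.00035).

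ISG15, a ubiquitin-like modifier, varied more between clones. It read 33.9, 44.2 and 32.6 CPM after IAA and 27.9, 33.8 and 29.1 CPM in DMSO in MAVS-/- clones, against 125, 39.3 and 73.8 CPM after IAA and 10.5, 7.43 and 10.2 CPM in DMSO in MAVS-intact clones. After IAA the genotypes overlapped, since MAVS-intact clone 7 lay below MAVS-/- clone 13, whereas in DMSO the MAVS-/- clones were higher by 1.69 ± 0.32 (edgeR adjusted p = 0.000982). The difference of responses was -2.67 ± 0.28 (edgeR adjusted p = 0.00117). BST2, the tether of budding virions, also stood higher in DMSO in MAVS-/- clones. It read 4.43, 3.44 and 4.55 CPM after IAA and 2.79, 4.59 and 4.99 CPM in DMSO in MAVS-/- clones, against 18.3, 6.44 and 4.65 CPM after IAA and 0.495, 0.152 and 0.205 CPM in DMSO in MAVS-intact clones. Its difference of -5.02 ± 0.53 sets a high MAVS-/- control against a MAVS-intact control near 0. IFI44, a cytoplasmic interferon-induced protein, stood at -5.71 ± 0.94, from under 1 CPM in all MAVS-/- libraries. XAF1 had 0 counts after IAA in all MAVS-/- clones and 0 counts in DMSO in all MAVS-intact clones, and 1.98, 6.94 and 3.42 CPM after IAA in MAVS-intact clones. MX1, the dynamin-like antiviral GTPase, read 1.71, 1.86 and 2.46 CPM after IAA in MAVS-/- clones and 4.56, 2.38 and 2.61 CPM in MAVS-intact clones, and its difference of -1.61 ± 0.57 was not called (edgeR adjusted p = 0.163).

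Lower levels were also measured where both arms were at the same day. After IAA with doxycycline, at 4 days in both genotypes, 49 of the 67 interferon-stimulated genes were lower in MAVS-/- clones and 6 higher, with a median of -1.30, while 24.2% of all genes were lower and 24.9% higher. In DMSO 21 of the 67 were higher in MAVS-/- clones and 7 lower, with a median of 0.41, beside 22.9% higher and 21.7% lower over all genes. Both of these direct comparisons run across the MT-ND6 library sets, so genotype cannot be told apart from library set in them. When the MAVS-intact response was taken from clones kept on a CDK4/6 inhibitor, with and without IAA at 4 days (a comparison added after the data had been seen), 34 of the 67 were lower in MAVS-/- clones, among 55 genes lower (0.331%) and 3 higher (0.0181%) in that comparison. There IFI6 stood at -5.11, RIGI at -1.53 and ISG15 at -3.06. The difference of IRF9 there, -1.05, was not called (edgeR adjusted p = 0.272). Of the 82 called differences among genes examined singly, 23 were called with the same sign in that comparison, 41 kept the sign without a call and 18 changed sign. The calls of IFI6, IFIT1, SAMD9, IFITM1, ISG15, OAS1, OAS3, RIGI, IFIH1 and EIF2AK2 passed under all 16 other settings tried, each clone left out included. The count of 40 was 24 without MAVS-/- clone 1 and 26 without clone 13 or clone 15.

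APOBEC3F and APOBEC3C, cytidine deaminases that restrict retroelements, were the 2 members of the list that fell in MAVS-/- clones, where PARP12, DTX3L and SAMD9 rose. The calls of APOBEC3C, PARP12, DTX3L and SAMD9 there were lost when any MAVS-/- clone was left out. APOBEC3F read 55.7, 20.1 and 46.6 CPM after IAA and 118, 33.2 and 98.8 CPM in DMSO in MAVS-/- clones, against 24.8, 18.2 and 18.3 CPM after IAA and 17.2, 14.5 and 13.02 CPM in DMSO in MAVS-intact clones. It fell in every MAVS-/- clone, with a response of -0.97 ± 0.14 (edgeR adjusted p = 0.00726), and rose by 0.45 ± 0.15 in MAVS-intact clones. The call of the fall was lost without the block and without clone 1 or clone 15, and the call of the difference was lost without the block and with the CDK4/6 inhibitor arms. In DMSO the MAVS-/- clones stood higher, without overlap. The family's members are similar in sequence, and no source used here says how reads shared between them were assigned.

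**Figure D3:**
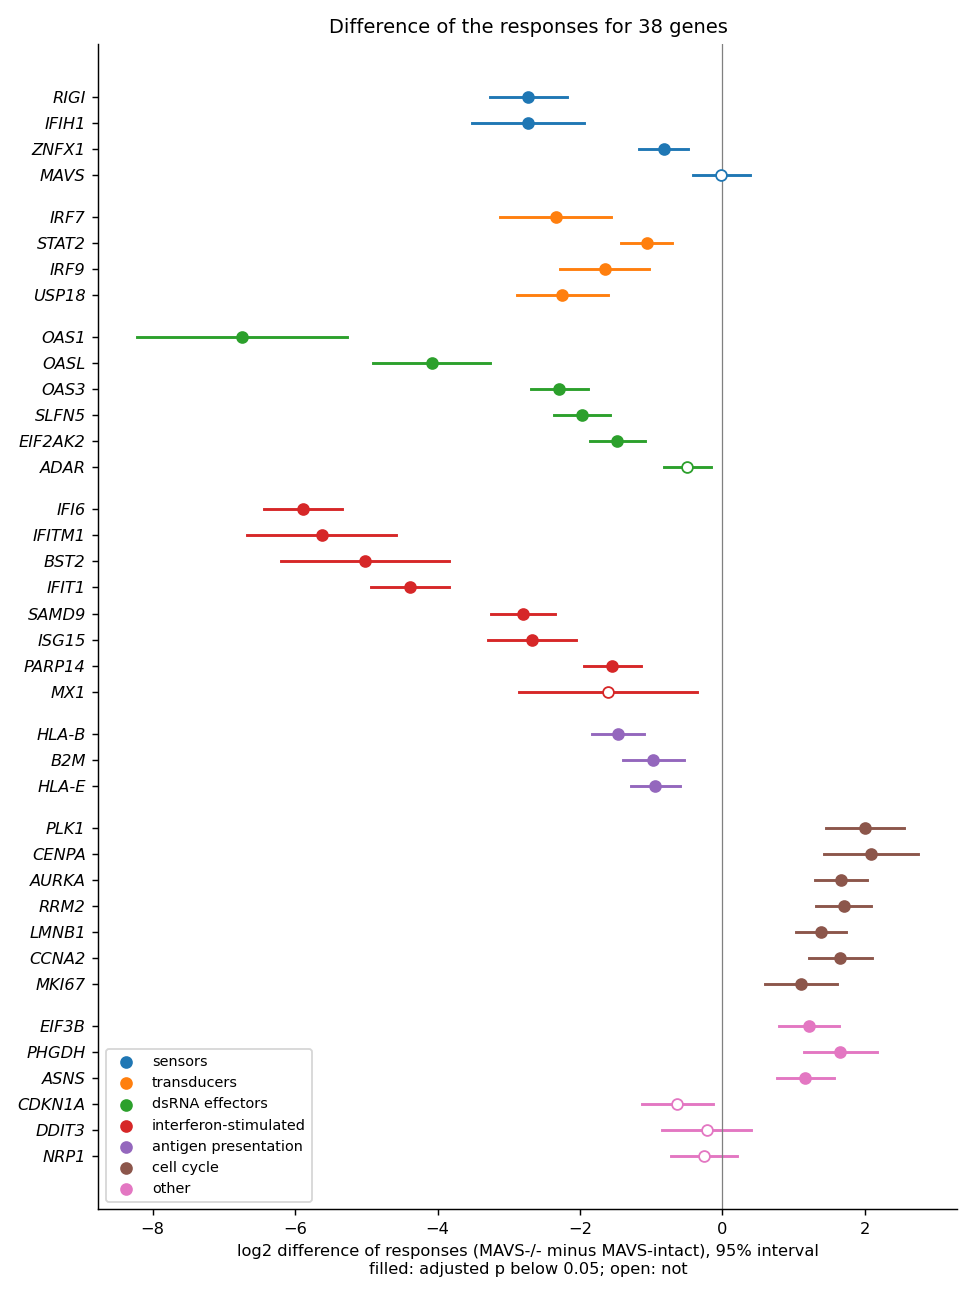
Difference of responses (MAVS-/- minus MAVS-intact, log2) with its 95% interval for 38 genes grouped by role, filled where the edgeR adjusted p was below 0.05. Sensors, transducers, double-stranded RNA effectors, interferon-stimulated and antigen presentation genes lie left of 0, cell cycle genes right of it, and MAVS, DDIT3 and NRP1 have intervals across 0.

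Class I genes rose in MAVS-intact clones, and the MAVS-/- clones, which stood higher in DMSO, overlapped them after IAA for HLA-B. Of 21 tested genes 8 had a lower response without MAVS and 0 a higher one, with a median of -0.80. HLA-B, a heavy chain of class I, read 245, 244 and 235 CPM after IAA and 179, 173 and 195 CPM in DMSO in MAVS-/- clones, against 302, 229 and 231 CPM after IAA and 72.0, 69.0 and 65.9 CPM in DMSO in MAVS-intact clones. The groups after IAA overlapped and those in DMSO did not. The difference was -1.46 ± 0.17 (edgeR adjusted p = 0.00175), with a level in DMSO higher by 1.40 ± 0.13 in MAVS-/- clones. B2M, the class I light chain, stood at -0.97 ± 0.19 (edgeR adjusted p = 0.0239), and HLA-E at -0.94 ± 0.16. The call of B2M was lost when any clone except MAVS-intact clone 1 was left out, and that of HLA-E without MAVS-/- clone 1 or 15. In DMSO 12 of the 21 genes were higher in MAVS-/- clones and 0 lower, beside 22.9% higher and 21.7% lower over all genes. After IAA 4 of the 21 were higher and 5 lower, beside 24.9% higher and 24.2% lower over all genes. The count of 8 was 1 without MAVS-/- clone 1 or clone 15, 4 without MAVS-/- clone 13 or MAVS-intact clone 9, and 5 without MAVS-intact clone 7. HLA genes are similar to each other, so reads could be split among them.

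**Figure D4:**
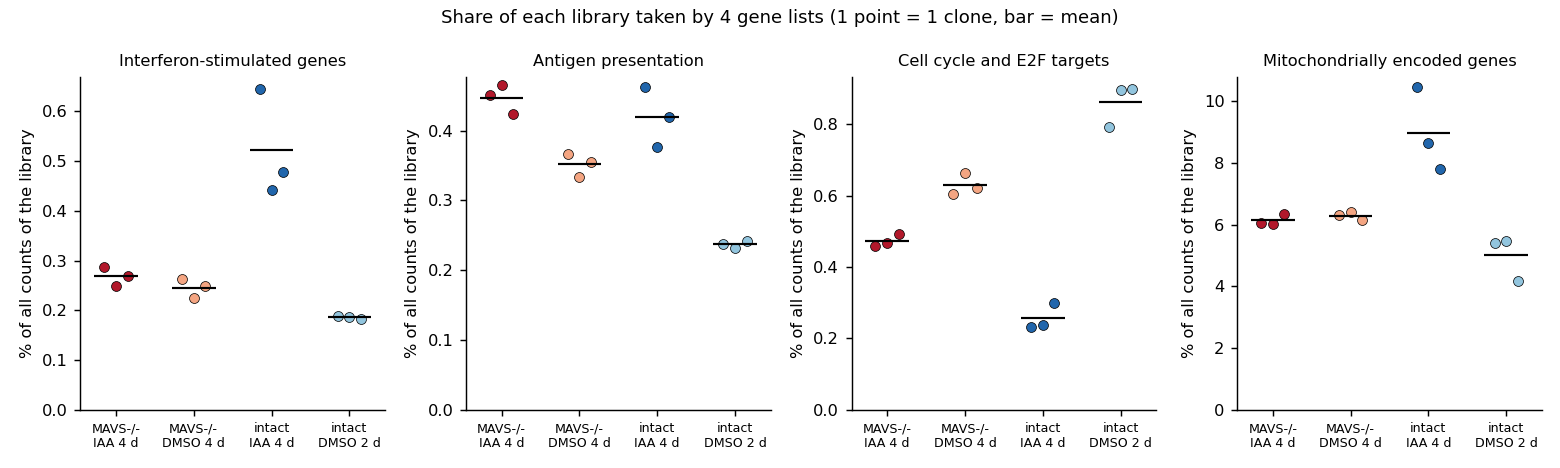
Share of each library's counts (percent, vertical from 0) taken by 4 gene lists in the 4 groups, with 1 point per clone and a bar at the mean. Interferon-stimulated genes reach 0.442 to 0.646% in MAVS-intact clones after IAA and are lower in the other groups, while cell cycle genes are lowest in that group.

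Other innate lists held few edgeR calls. Among 12 cGAS-STING genes edgeR called 0, with 1 higher and 1 lower at an unadjusted p below 0.05, 1 lower by DESeq2 and 0 by limma, and the median difference was 0.06. STING1, the adaptor of the DNA sensor cGAS, stood at -0.10 ± 0.35, and CGAS itself did not pass the count filter. Of 27 NF-kB targets 1 was lower and 0 higher, with a median of -0.27, and the call was CFLAR, the inhibitor of caspase-8, at -1.15 ± 0.19 (edgeR adjusted p = 0.0102). At an unadjusted p below 0.05, 7 NF-kB targets were lower and 1 higher, and DESeq2 called 5 lower and 0 higher. Of 10 cytokine genes tested 1 was lower, IL18, which read 41.4, 61.7 and 42.9 CPM after IAA and 49.7, 50.9 and 44.2 CPM in DMSO in MAVS-/- clones, against 106, 114 and 124 CPM after IAA and 53.7, 45.5 and 49.2 CPM in DMSO in MAVS-intact clones. Only the MAVS-intact libraries after IAA stood apart, and the difference was -1.22 ± 0.20 (edgeR adjusted p = 0.00984). The calls of CFLAR and IL18 were lost without MAVS-/- clone 1 and with the CDK4/6 inhibitor arms, where CFLAR stood at -0.09, that of CFLAR also with limma, which called 1 NF-kB target higher and 0 lower, and that of IL18 without clone 15. The chemokine CXCL16 rose in both genotypes, by 0.75 ± 0.16 in MAVS-/- clones (a call lost when any of these clones was left out) and 1.00 ± 0.16 in MAVS-intact clones, with a 95% interval of the difference from -0.75 to 0.25. Among 21 cell death genes edgeR called 0, with 4 lower at an unadjusted p below 0.05, 2 by DESeq2 and 0 by limma. Among 18 unfolded protein response genes edgeR called 0, with 2 lower at an unadjusted p below 0.05 and 0 by DESeq2 or limma. Among 9 targets of the aryl hydrocarbon receptor edgeR called 0, with 1 higher and 1 lower at an unadjusted p below 0.05, 1 lower by DESeq2 and 0 by limma.

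**Figure D5:**
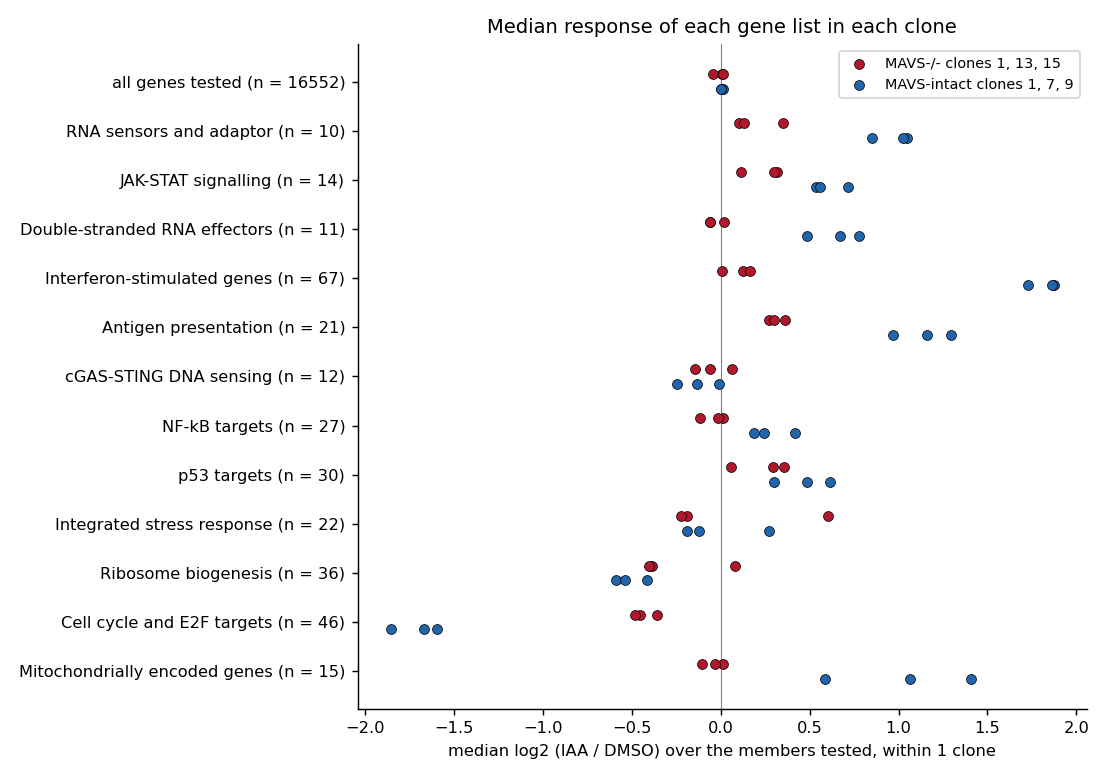
Median log2 response over the tested members of 13 gene sets within each clone, MAVS-/- clones in red above MAVS-intact clones in blue. The clones of the genotypes separate for RNA sensors, JAK-STAT signalling, double-stranded RNA effectors, interferon-stimulated genes, antigen presentation, cell cycle and mitochondrially encoded genes. They also separate for NF-kB targets and, narrowly, for ribosome biogenesis. The clones overlap for cGAS-STING genes, p53 targets, integrated stress response genes and all genes tested.

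Cell cycle genes fell less in MAVS-/- clones, against 4-day DMSO controls, than in MAVS-intact clones, against 2-day ones. Of 46 tested E2F targets and mitotic genes 40 had a higher response in MAVS-/- clones and 0 a lower one, with a median difference of 1.27. In MAVS-intact clones 45 of 46 fell, with a median of -1.79, and in MAVS-/- clones 11 fell, with a median of -0.43. PLK1 read 131, 113 and 115 CPM after IAA and 155, 149 and 158 CPM in DMSO in MAVS-/- clones, against 37.3, 24.7 and 48.5 CPM after IAA and 168, 197 and 189.8 CPM in DMSO in MAVS-intact clones. The MAVS-intact libraries after IAA lay lowest, without overlap, and every MAVS-/- clone lay lower after IAA than in DMSO, a change of -0.37 ± 0.17 that was not called. The difference was 2.00 ± 0.25 (edgeR adjusted p = 0.00263). CENPA, the centromeric histone, read 14.5, 12.9 and 15.5 CPM after IAA in MAVS-/- clones and 3.62, 2.88 and 2.53 CPM in MAVS-intact clones, a difference of responses of 2.09 ± 0.30. The kinase AURKA stood at 1.67 ± 0.17, the ribonucleotide reductase subunit RRM2 at 1.70 ± 0.18, the lamin LMNB1 at 1.39 ± 0.16 and cyclin CCNA2 at 1.66 ± 0.20.

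The starting levels differed for part of this list. MKI67, the proliferation antigen, read 479.6, 314 and 478 CPM after IAA and 589, 540.1 and 558 CPM in DMSO in MAVS-/- clones, against 290.1, 400.0 and 514 CPM after IAA and 1116, 1172 and 1119 CPM in DMSO in MAVS-intact clones. After IAA the genotypes overlapped, and in DMSO the MAVS-/- clones were lower by a log2 change of -1.01 ± 0.19 (edgeR adjusted p = 0.000893), which the difference of 1.11 ± 0.23 includes. In DMSO 22 of the 46 were lower in MAVS-/- clones at 4 days than in MAVS-intact clones at 2 days and 0 higher. Over all genes 21.7% were lower and 22.9% higher there. After IAA 33 of the 46 were higher and 1 lower, with a median of 0.85, beside 24.9% higher and 24.2% lower over all genes. HELLS, a chromatin remodeller of dividing cells, was the 1 lower gene, at -0.88 ± 0.13 after IAA. With the CDK4/6 inhibitor arms as the MAVS-intact response, edgeR called 0 of 46 higher, and PLK1 stood at 0.74 and AURKA at 0.48. CDK4/6 inhibitors act on the cell cycle themselves, and both of those MAVS-intact arms carried one. Without MAVS-/- clone 15 the count of 40 was 26, and the call of MKI67 was lost there and without MAVS-/- clone 1 or MAVS-intact clone 7.

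Repair genes and p53 targets held fewer calls. Of 22 double-strand break repair genes 5 were higher and 0 lower, with a median of 0.28. XRCC6, which encodes Ku70, read 628, 668 and 610.1 CPM after IAA and 874, 888 and 842 CPM in DMSO in MAVS-/- clones, against 300.3, 392 and 399 CPM after IAA and 889.9, 931 and 967 CPM in DMSO in MAVS-intact clones. It was lowest in MAVS-intact clones after IAA, and the difference was 0.91 ± 0.15 (edgeR adjusted p = 0.00987). XRCC5 stood at 0.50 ± 0.19 (edgeR adjusted p = 0.191), and since IAA removes the protein its mRNA does not check depletion. FANCD2 stood at 1.30 ± 0.20, the polymerase POLQ at 1.28 ± 0.24 and the nuclease EXO1 at 1.22 ± 0.24. With the CDK4/6 inhibitor arms XRCC6 stood at 0.18, FANCD2 and POLQ at 0.26 and EXO1 at 0.54, and none was called. The call of FANCD2 was also lost with limma. Of 30 p53 targets 1 was lower, the stress gene GADD45A at -0.93 ± 0.17 (edgeR adjusted p = 0.0179), which rose in both genotypes, in MAVS-/- clones with a call lost when any of them was left out. With the CDK4/6 inhibitor arms GADD45A stood at -0.07, and its call was also lost without the block and with limma. Without MAVS-/- clone 1 or 15 the calls of XRCC6, POLQ, EXO1 and GADD45A were lost, that of EXO1 also without MAVS-/- clone 13 and MAVS-intact clone 7, that of POLQ without MAVS-intact clone 9, and that of GADD45A without MAVS-intact clone 7 or 9. CDKN1A, which encodes the cell cycle inhibitor p21, read 451, 443 and 569.6 CPM after IAA and 301, 306 and 379 CPM in DMSO in MAVS-/- clones, against 503, 337 and 287 CPM after IAA and 151, 202 and 129.8 CPM in DMSO in MAVS-intact clones. Its difference of -0.64 ± 0.23 was not called (edgeR adjusted p = 0.167).

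Transcripts encoded in mitochondria, where MAVS resides, rose in MAVS-intact clones and not by this test in MAVS-/- clones. Of 15 tested, 12 rose and 0 fell in MAVS-intact clones, while in MAVS-/- clones edgeR called 0, with 3 down at an unadjusted p below 0.05 and 1 down by DESeq2, and 10 had a called lower response, with a median difference of -1.07. They took 6.06, 6.03 and 6.35% of counts after IAA and 6.32, 6.40 and 6.15% in DMSO in MAVS-/- clones, against 10.5, 8.66 and 7.79% after IAA and 5.42, 5.47 and 4.16% in DMSO in MAVS-intact clones. The MAVS-intact libraries after IAA stood above all others, a comparison of genotypes that runs across the library sets. MT-ND6, whose level marks those sets, belongs to this list and was among the 10, at -1.25. Its difference was 3.16 with 1-day DMSO controls, which come from the other set, and 0.75 with the CDK4/6 inhibitor arms. MT-CO2, a subunit of cytochrome oxidase, read 4526, 4811 and 4451 CPM after IAA and 5267, 5543 and 4821 CPM in DMSO in MAVS-/- clones, against 9501, 6788 and 6555 CPM after IAA and 3256, 3373 and 2382 CPM in DMSO in MAVS-intact clones. Its difference was -1.52 ± 0.16 (edgeR adjusted p = 0.00132), and MT-ND4, of complex I, stood at -1.32 ± 0.18. With the CDK4/6 inhibitor arms edgeR called 0 of 15 lower, and MT-CO2 stood at 0.17.

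A set of genes moved in both genotypes with a difference bounded within 1 log2 unit against the 2-day DMSO controls, a bound that did not hold for all of them under other controls. DDIT3, the stress factor CHOP, read 31.7, 63.5 and 36.3 CPM after IAA and 10.2, 10.5 and 10.4 CPM in DMSO in MAVS-/- clones, against 27.9, 39.6 and 27.9 CPM after IAA and 6.04, 8.19 and 6.05 CPM in DMSO in MAVS-intact clones. Every library after IAA stood above every DMSO library, in both genotypes. The responses were 2.01 ± 0.20 in MAVS-/- clones and 2.23 ± 0.21 in MAVS-intact clones, and the difference had a 95% interval of -0.84 to 0.40. Against 1-day DMSO controls, from libraries of the other MT-ND6 set, its difference was 1.09 and called. Differences of CAV1 at 0.87, IFRD1 at 0.63, NR2F1 at -1.11 and LINC00173 at -1.32 were called there too. NRP1, a receptor for semaphorins and VEGF, rose by 2.36 ± 0.15 in MAVS-/- clones and 2.62 ± 0.15 in MAVS-intact clones, with a 95% interval of the difference of -0.72 to 0.21. The difference of NRP1 was 0.93 (edgeR adjusted p = 0.0504) with the CDK4/6 inhibitor arms and 0.75 with 1-day controls. IFRD1 rose by 1.83 ± 0.15 in MAVS-/- clones and 1.81 ± 0.15 in MAVS-intact clones. CORO2B rose by 1.75 ± 0.27 in MAVS-/- clones and 1.85 ± 0.26 in MAVS-intact clones. Among genes that fell in both, CAV1, the coat protein of caveolae, stood at -1.34 ± 0.13 in MAVS-/- clones and -1.47 ± 0.13 in MAVS-intact clones. The nuclear receptor NR2F1 stood at -1.56 ± 0.18 in MAVS-/- clones and -1.48 ± 0.19 in MAVS-intact clones, with a 95% interval of the difference of -0.65 to 0.49. KCTD12 stood at -1.52 ± 0.32 in MAVS-/- clones and -1.48 ± 0.31 in MAVS-intact clones, and LINC00173 at -1.55 ± 0.27 in MAVS-/- clones and -1.61 ± 0.27 in MAVS-intact clones. The MAVS-/- calls of CORO2B, KCTD12 and LINC00173 were lost without clone 13, that of KCTD12 also without clone 1 and those of KCTD12 and LINC00173 without clone 15.

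EIF3B, CAD, PHGDH, ASNS and MTHFD2, genes of translation and of nucleotide and amino acid supply, fell in both genotypes, and further in MAVS-intact clones. EIF3B, a subunit of initiation factor eIF3, read 114, 148 and 108 CPM after IAA and 331, 381 and 385 CPM in DMSO in MAVS-/- clones, against 46.2, 47.2 and 67.0 CPM after IAA and 363, 355 and 379 CPM in DMSO in MAVS-intact clones. The DMSO groups overlapped, and after IAA the MAVS-/- clones lay between the DMSO libraries and the MAVS-intact ones. It fell in both genotypes, with a response of -1.58 ± 0.14 in MAVS-/- clones (edgeR adjusted p = 0.000495) and of -2.80 ± 0.14 in MAVS-intact clones, a difference of 1.22 ± 0.19 (edgeR adjusted p = 0.00826). CAD, of pyrimidine synthesis, stood at -0.72 ± 0.12 in MAVS-/- clones and -1.48 ± 0.13 in MAVS-intact clones. Of 22 integrated stress response genes 3 were higher in the difference and 0 lower, with a median of 0.01, while in MAVS-/- clones 2 rose and 5 fell. The 3 higher ones were the serine synthesis enzyme PHGDH at 1.65 ± 0.23, the asparagine synthetase ASNS at 1.17 ± 0.18 and the one-carbon enzyme MTHFD2 at 0.87 ± 0.20. The response in MAVS-/- clones was -1.12 ± 0.16 for PHGDH, -1.01 ± 0.13 for ASNS and -0.95 ± 0.14 for MTHFD2. Those calls were lost without clone 13 or 15 for PHGDH, without clone 1 for ASNS, without clone 1 or 15 for MTHFD2 and without any 1 of the MAVS-/- clones for CAD. The share of counts taken by the list was 0.195, 0.342 and 0.195% after IAA and 0.269, 0.272 and 0.261% in DMSO in MAVS-/- clones, higher after IAA in clone 13 and lower in clones 1 and 15. With the CDK4/6 inhibitor arms EIF3B stood at 0.06, PHGDH at -0.23 and ASNS at -0.44, and none of these was called. Among 36 ribosome biogenesis genes edgeR called 0 differences, with 6 higher at an unadjusted p below 0.05 and 1 higher by DESeq2 and by limma, and 6 fell in MAVS-/- clones, while 21 fell and 1 rose in MAVS-intact clones. Of 18 reference genes 1 was called, the tubulin TUBB at 0.82 ± 0.17. The calls of CAD and TUBB were lost when any clone except MAVS-intact clone 1 was left out, and that of MTHFD2 when any clone was. With the CDK4/6 inhibitor arms CAD stood at -0.058, MTHFD2 at -0.36 and TUBB at 0.09, none called.

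The rule for naming the outermost genes also took in poorly measured ones. MALLP1, named as a pseudogene, had 0 counts after IAA in every MAVS-/- clone and 2.12, 12.7 and 13.3 CPM after IAA in MAVS-intact clones. CDRT4 had 0 counts after IAA in every MAVS-/- clone, 1.69, 17.4 and 0 CPM in MAVS-intact clones and 1.40, 0.623 and 0.641 CPM in DMSO in MAVS-/- clones. MT-TA, a mitochondrial tRNA on the same strand as MT-ND6, read 25.6, 17.8 and 22.2 CPM after IAA and 33.0, 28.8 and 29.0 CPM in DMSO in MAVS-/- clones, against 4.99, 1.63 and 1.79 CPM after IAA and 0, 0.152 and 0.102 CPM in DMSO in MAVS-intact clones. ENSG00000245748 read 29.6, 38.4 and 31.3 CPM after IAA in MAVS-/- clones and 0.376, 0.5 and 0.0815 CPM in MAVS-intact clones, and ENSG00000266469 read 3.95, 5.23 and 5.41 CPM in MAVS-/- clones and 0.235, 5.94 and 2.36 CPM in MAVS-intact clones. In DMSO ENSG00000245748 read 31.0, 30.3 and 33.1 CPM in MAVS-/- clones and 0 counts in all MAVS-intact clones, so it split the genotypes in both media, as MT-ND6 and MT-TA did, and its part in the library sets was not tested. On the higher side ENSG00000258465 had 0 counts after IAA in every MAVS-intact clone and 6.43, 9.32 and 7.25 CPM in MAVS-/- clones, and ENSG00000280893 had 0 counts in DMSO in every MAVS-/- clone. FERMT3, an integrin activator of blood cells, read 8.85, 5.38 and 8.91 CPM after IAA in MAVS-/- clones and 0.329, 0.0625 and 1.79 CPM in MAVS-intact clones, a difference of 3.40 ± 0.76, and MEIOSIN, a meiotic regulator, stood at 3.07 ± 0.67, or -0.05 with limma on log2(TPM + 1). The mitotic genes CENPM at 2.27 ± 0.47, CDCA3 at 2.05 ± 0.23 and DEPDC1B at 1.91 ± 0.24 and the FAM72 family member FAM72A at 1.92 ± 0.29, whose copies are nearly identical, completed that side. Of these, FERMT3, MEIOSIN and CENPM lost the call when any MAVS-/- clone was left out. With the CDK4/6 inhibitor arms FERMT3, MEIOSIN, CENPM, CDCA3, DEPDC1B and FAM72A were not called.

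CEMIP, a hyaluronan-binding protein chosen here after its values were seen, had a large response in both genotypes. It read 140.3, 63.5 and 100.3 CPM after IAA and 7.59, 4.05 and 6.27 CPM in DMSO in MAVS-/- clones, against 126, 139 and 81.7 CPM after IAA and 1.19, 2.35 and 1.23 CPM in DMSO in MAVS-intact clones. The groups after IAA overlapped and those in DMSO did not. The responses were 4.07 ± 0.17 in MAVS-/- clones and 6.17 ± 0.20 in MAVS-intact clones, a difference of -2.10 ± 0.26 (edgeR adjusted p = 0.00263). CD68, a lysosomal protein and the 1 called blood and stromal marker, read 6.96, 34.6 and 9.03 CPM after IAA in MAVS-/- clones and 117, 58.0 and 46.5 CPM in MAVS-intact clones, a difference of -2.39 ± 0.47. The epithelial markers CDH1 at -0.91 ± 0.16, KRT19 at -1.12 ± 0.21 and ELF3 at -1.04 ± 0.20 were the 3 of 11 colon markers called, all lower. The calls of CD68, CDH1, KRT19 and ELF3 were lost without MAVS-/- clone 1, those of CDH1, KRT19 and ELF3 also without MAVS-/- clone 15, that of ELF3 without MAVS-/- clone 13, and those of CD68 and CDH1 without MAVS-intact clone 9. With the CDK4/6 inhibitor arms none of the 4 was called, and CEMIP stood at -0.61, not called.

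The genes of the difference were also read in 2 experiments with other cells and libraries, neither with a MAVS-/- arm. In HCT116 Ku86flox/- cells, where 4OHT brings the recombinase CreERT2 into the nucleus to cut out the remaining Ku80 gene, the 4-day response to 4OHT over ethanol was set against that of cells without Cre. It tested 275 of the 277 genes with a lower response, of which 162 rose and 32 fell, beside 18.8% and 22.4% of all genes. That response tested all 248 with a higher response, of which 2 rose and 223 fell. In HEK293 cells, an embryonic kidney line, clones lacking Ku70 lived on a doxycycline-driven copy, and 8 days after its withdrawal 231 of the 277 were tested, and 16 rose and 83 fell, beside 16.9% and 17.8% of all genes there. Of the 248, 235 were tested, and 39 rose and 56 fell. Of the interferon-stimulated list 41 of 67 were up and 2 down with Cre, and 2 of 63 were up and 24 down in HEK293.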

How the data were processed

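Poly-A RNA-seq of HCT116 and HEK293 was deposited by the authors as estimated counts per gene, with TPM for the same genes. The submitters' processing notes name Salmon 1.10.2, kallisto 0.50.0, DESeq2 and GRCh38 without their roles; no label or header gives the annotation, the strand setting or how shared reads were handled. The authors' estimated counts were rounded. The main test was edgeR's (4.0.16, under R 4.3.3) quasi-likelihood test with TMM scaling, a filterByExpr filter on the groups, 6 clones as a block (8 coefficients, 4 residual degrees of freedom before moderation) and Benjamini-Hochberg adjustment over 16552 genes. Genotypes within a medium were compared without the block. The coefficient of biological variation was 18.1%. Alternatives were RLE factors, no filter, DESeq2 (version 1.42.0), limma (version 3.58.1) on log2(TPM + 1) and log2(TPM + 0.1) with the TPM deposited by the authors, no block, all 32 degron libraries, each clone left out and other controls. The limma fold changes are on the log2(TPM + pseudocount) scale, which understates changes of low genes.

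The block rests on the IAA and DMSO libraries of a clone being the same cell line; deviations from the group means correlated by 0.276, 0.316 and 0.0689 for MAVS-/- clones 1, 13 and 15 and by 0.0282, 0.0320 and 0.0808 for MAVS-intact clones 1, 7 and 9. Because every clone has 1 library per medium, p-values measure the spread between clones. Libraries of a group differed by more than sampling noise (chi-square at least 5.20 per degree of freedom).

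Genes named are the 10 lowest and 10 highest called differences without overlap and with at least 5 CPM in a group, the 5 that rose and 5 that fell most in both genotypes with the 95% interval within 1 log2 unit, up to 4 members of each list by the p of the difference and 2 by that of the MAVS-/- response, and a fixed set of pathway genes; some genes it selects are not reported here. APOBEC3C, CEMIP, DTX3L, EHF, HERC5, IFIT5, IRF1, IRF2, JAK1, KRT18, PARP12, PARP14, PPP1R15A, TRIM25, XAF1 and ENSG00000250920 were named outside this rule, after their values were seen. The comparison, its gene lists and its members were chosen with earlier results of these data known. Fitted folds with a group at 0 counts are not given. Promoters are those of RefSeq on GRCh38.p14. The scripts were tested on simulated data.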

Additional observations from a re-analysis of the deposited data

Results flagged for a closer look

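Responses differed between MAVS-/- and MAVS-intact clones for 525 genes in the edgeR test of the difference, 277 lower and 248 higher. Within the lists this held for 40 interferon-stimulated genes, 8 antigen presentation genes and 10 mitochondrially encoded genes, all lower in MAVS-/- clones, and for 40 cell cycle genes, all higher.

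EHF, an ETS factor of epithelia, moved in opposite directions, and each direction passed the edgeR test. It read 139.9, 83.4 and 159 CPM after IAA and 216, 140.1 and 207 CPM in DMSO in MAVS-/- clones, against 197, 190.1 and 327 CPM after IAA and 119.7, 82.1 and 151 CPM in DMSO in MAVS-intact clones, a difference of -1.60 ± 0.19 (edgeR adjusted p = 0.00214). APOBEC3F, described above, did the same with -1.42 ± 0.20, and its neighbour in the family APOBEC3C with -1.13 ± 0.18. APOBEC3C read 156, 62.9 and 137 CPM after IAA and 257, 79.8 and 226 CPM in DMSO in MAVS-/- clones, against 134, 139 and 129 CPM after IAA and 105, 93.8 and 81.2 CPM in DMSO in MAVS-intact clones. Reads shared by APOBEC3F and APOBEC3C could be split between them. The unnamed gene ENSG00000250920 stood at -1.33 ± 0.23. For all 4 genes every MAVS-/- clone fell and every MAVS-intact clone rose. The MAVS-/- falls of EHF, APOBEC3C and ENSG00000250920 lost the call when any MAVS-/- clone was left out, and with the CDK4/6 inhibitor arms none of the 4 differences was called.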

How the results depend on the processing

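For the difference (248 higher, 277 lower in MAVS-/- clones) the counts were 481 and 646 with no count filter, 447 and 522 with DESeq2, 602 and 670 with all degron libraries and the replicate block, and 464 and 451 with those libraries and no block. Without the replicate block 162 were lower, with limma on log2(TPM + 1) 116 and with log2(TPM + 0.1) 101. With 1-day DMSO controls they were 3162 and 2476, and with the 4-day inhibitor arms, added after the data had been seen, 3 and 55. Leaving out clones gave 75 to 470 higher and 82 to 511 lower. Limma moved the share of higher calls to 75.1% and 76.9%, against 47.2% in edgeR.

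Of the list counts, 40 interferon-stimulated genes became 25 with log2(TPM + 0.1) and 24 to 39 without single clones. The 40 cell cycle genes became 0 with the inhibitor arms and 26 to 40 without single clones. The 10 mitochondrial genes became 4 with either limma fit, 6 with all degron libraries with or without the block, and 0 with the inhibitor arms. The 8 antigen presentation genes became 3 with either limma fit, 13 with 1-day controls, 4 with the inhibitor arms and 1 to 9 without single clones.

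The MAVS-/- response (358 up, 314 down) gave 762 and 579 with no filter, 666 and 696 with DESeq2, 197 and 89 with log2(TPM + 1), 184 and 71 with log2(TPM + 0.1), 1042 and 831 with all degron libraries and the block, and 893 and 595 without it. Without the block alone 180 were down. Without single clones it gave 18 to 868 up and 19 to 766 down. The MAVS-intact response gave 4271 up and 4852 down with 1-day controls, 1429 and 1250 with the inhibitor arms, and 1758 to 2629 down without single clones. In DMSO, genes higher in MAVS-/- clones numbered 2068 with log2(TPM + 1), 2026 with log2(TPM + 0.1) and 2499 to 3788 without single clones. HEK293 gave 1731 up and 1695 down without the block, 1482 to 3189 up and 1675 to 2891 down without single clones.

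Sign changes of the difference that involved a call, in the reported fit or the alternative, came with 3 settings. With limma on log2(TPM + 1) ENSG00000245748 stood at 0.0094 and MEIOSIN at -0.050. With 1-day controls ENSG00000266469 stood at 2.66, ENSG00000245748 at 7.09, MT-TA at 1.41, DDIT3 at 1.09, LINC00173 at -1.32, MT-ND6 at 3.16 and IRF3 at 0.72. With the inhibitor arms ENSG00000266469 stood at 0.030, ENSG00000245748 at 3.32, MT-TA at 1.195, PARP1 at -0.069, PHGDH at -0.23, ASNS at -0.44, MTHFD2 at -0.36, MT-CO2 at 0.17, MT-CO3 at 0.34, MT-ND4L at 0.60, MT-ND4 at 0.028, MT-CO1 at 0.063, MT-ND6 at 0.75, EIF3C at -0.45, CAD at -0.058, CDH1 at 0.041, CD68 at 0.68 and ENSG00000250920 at 0.64. Differences called in neither fit changed sign in 111 of 1298 values, 37 of them with the inhibitor arms, where NRP1 stood at 0.93. The cause was not tested. Among other differences of genes examined singly 2338 values kept their side of the threshold, 263 lost and 132 gained a call.

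The 1-day controls come from the other MT-ND6 set of libraries and from clones 1 and 9 only. Depth limits genes under about 1 CPM, and 3 clones a group limit calls of small differences.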

Other observations

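Over the 16552 tested genes, the responses of single clones correlated by 0.318 to 0.484 between MAVS-/- clones, by 0.438 to 0.497 between MAVS-intact clones and by 0.285 to 0.389 between genotypes. These are correlations across genes, which are not independent replicates, and clones of a genotype share their time scheme and library set.

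PPP1R15A, the GADD34 subunit that reverses eIF2 alpha phosphorylation, rose in MAVS-/- clones by 1.29 ± 0.23 (edgeR adjusted p = 0.0158), and its difference of -1.05 ± 0.32 was not called. AHRR, the repressor of the aryl hydrocarbon receptor, rose in both genotypes, by 1.01 ± 0.16 in MAVS-/- clones and 1.42 ± 0.17 in MAVS-intact clones. The MAVS-/- call of AHRR was lost with limma and when any MAVS-/- clone was left out, and that of PPP1R15A without clone 13.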
